A study of Arabidopsis thaliana with 6 samples.

Results

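Sinapate esters are phenylpropanoids that Arabidopsis deposits in the upper layers of its leaves, where they absorb UV light and give the leaf a blue-green fluorescence under UV. Mutants that make less of them look red under UV and were named *reduced epidermal fluorescence* (*ref*). The pathway starts from phenylalanine, passes through esters of shikimate, and reaches sinapate by oxidation of an aldehyde. Sinapate is then joined to glucose, and the energy-rich ester sinapoylglucose donates its sinapoyl group to malate in leaves and to choline in seeds.

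The genes described here are 10 of the 36796 genes in a table of RNA-seq read counts. They were listed by name for their step in this branch, at a time when earlier results of these data were known. *CSE* codes for caffeoyl shikimate esterase, which releases caffeate from caffeoyl shikimate. *REF1* codes for the aldehyde dehydrogenase that forms sinapate. *UGT84A1*, *UGT84A2*, *UGT84A3* and *UGT84A4* code for glucosyltransferases that form glucose esters of hydroxycinnamates. *SNG1*, *SNG2*, *SST* and *SCPL10* code for serine carboxypeptidase-like (SCPL) acyltransferases that use sinapoylglucose as the donor.

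Transcripts were counted in 3 libraries from *ref4-3* plants and 3 libraries from wild-type plants, all in the Col-0 ecotype. The semidominant allele *ref4-3* is a point mutation in *MED5b* (*REF4*), which codes for a subunit of the tail of the Mediator complex that links transcription factors to RNA polymerase II. It is a single mutant line, and no second allele was included in the RNA-seq. Each library was made from whole rosettes of 5 unbolted plants that were 21 days old. Seeds had been kept cold and dark for 3 days, plants grew on soil at 22 °C under 150 µE of light with far-red supplement in cycles of 16 h light and 8 h dark, and tissue was collected 6 h after the lights came on. The study asked whether changed chromatin marks contribute to changed transcript levels in *ref4-3*, and only the transcript levels are described here.

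Library totals ranged from 26060005 to 32879414 counts. Between 34087 and 34884 genes had counts in the *ref4-3* libraries, against 27913 to 33228 in the wild-type libraries, of which replicate 2 had the fewest. Levels are given as CPM, counts per 1000000 counts of a library after its total was corrected by edgeR's TMM factor. The 3 counts taken as the floor of detection correspond to 0.0871 to 0.124 CPM. Such floors cover counting error only. *MED5b* itself was at 17.4 ± 1.15 CPM in *ref4-3* and 21.5 ± 4.50 CPM in wild type (SD, n = 3 each), with a log2 fold change of -0.31 ± 0.16 (SE) and an adjusted p of 0.202. Since *ref4-3* is a point mutation, this level does not check the labels. Mesophyll markers were abundant in all libraries, and the summed level of 4 seed markers was 2.73 to 4.11 CPM in *ref4-3* and 0.626 to 2.35 CPM in wild type. The summed level of 4 root markers was 1.85 to 2.38 CPM in *ref4-3* and 0.626 to 1.36 CPM in wild type. Of the root markers, the phosphate transporter gene *PHT1;1* was called higher, at 0.836 ± 0.112 CPM in *ref4-3* and 0.225 ± 0.163 CPM in wild type (SD, n = 3 each; log2 fold change 1.83 ± 0.49 SE, adjusted p = 0.0392 by edgeR's test). That gene had 30, 27 and 23 counts in *ref4-3*, against 13, 4 and 3 counts in wild type, and had enough counts to be tested only through *ref4-3*. Low counts leaned upward in *ref4-3* in general. Among the 13106 genes with too few counts to be tested, 22.8% had every *ref4-3* library above every wild-type library. Only 0.763% had every one below. The summed level of 4 flower markers was 4.53 to 7.27 CPM in *ref4-3* and 7.72 to 10.7 CPM in wild type.

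Of the 10 genes, 9 had enough counts to be tested and *SNG2* did not. The test was edgeR's quasi-likelihood test of genotype, with Benjamini-Hochberg correction over the 23050 tested genes. A gene was called when its adjusted p was under 0.05. The glucosyltransferase genes *UGT84A2* and *UGT84A3* and the acyltransferase gene *SST* were higher in *ref4-3*. The malate acyltransferase gene *SNG1* and the esterase gene *CSE* were lower. *UGT84A1*, *UGT84A4*, *REF1* and *SCPL10* did not pass the test. Among all tested genes 20.4% were called, with 11.9% lower and 8.52% higher. Both groups of libraries were fully separated for each of the 5 called genes. Over all tested genes, 22.8% had every *ref4-3* library below every wild-type library and 22.4% had every one above. The median log2 fold change of the 9 tested genes was 0.33, against 0.01 over all tested genes, and their range was -0.95 to 2.91. The 9 genes thus lay on both sides of 0 and did not share a direction.

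**Figure D1:**
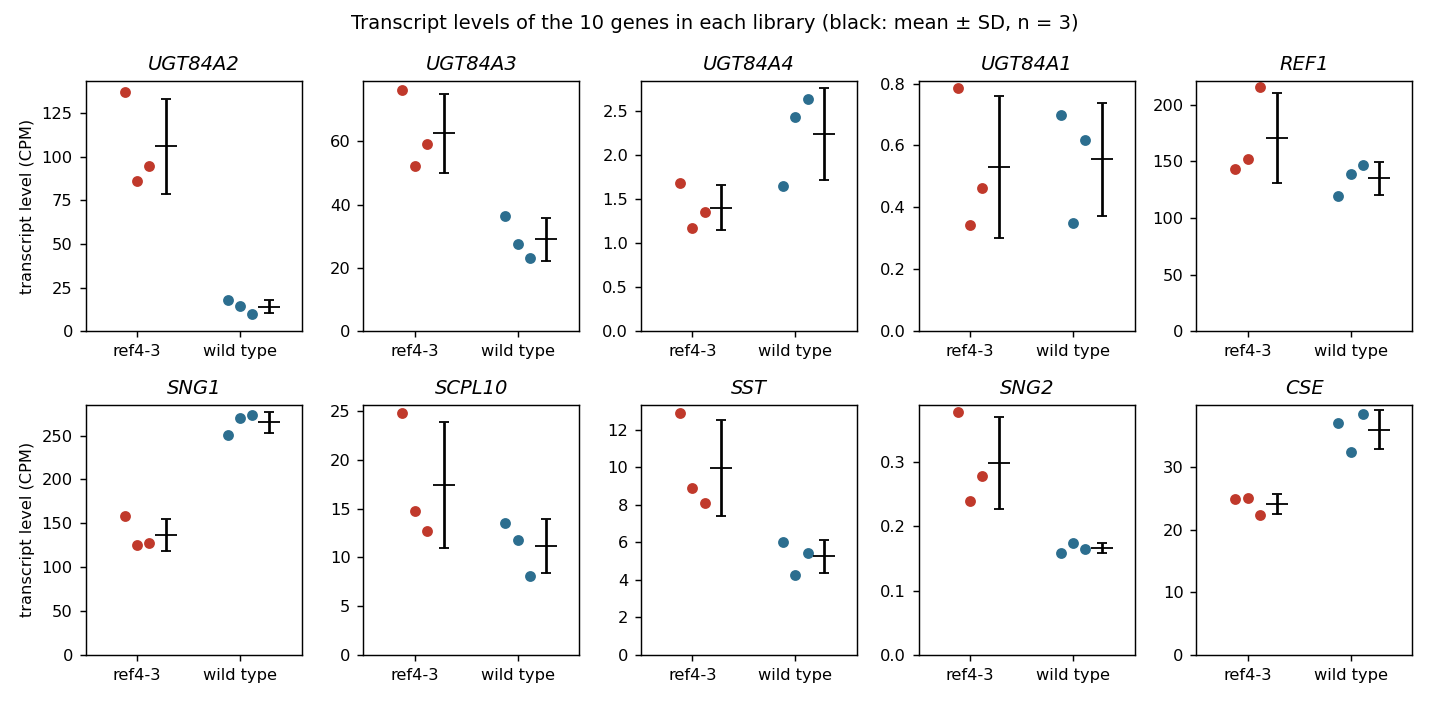
Transcript level (CPM, TMM-scaled, linear axes that start at 0) of the 10 genes in each *ref4-3* library (red, left) and each wild-type library (blue, right), with the mean and SD of 3 libraries in black. *UGT84A2* was at 86.3 to 137 CPM in *ref4-3* and 10.1 to 17.6 CPM in wild type, whereas *SNG1* was at 125 to 158 CPM in *ref4-3* and 251 to 274 CPM in wild type.

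The 4 *UGT84A* genes code for close relatives that add glucose to the carboxyl group of hydroxycinnamates. UGT84A2 is the main enzyme for sinapate in Arabidopsis, and its mutant *bright trichomes 1* was found by the fluorescence of its trichomes. *UGT84A2* (AT3G21560) lies alone at chr3:7595680-7597607 on the plus strand. The other members stand side by side on the minus strand of chromosome 4, *UGT84A1* (AT4G15480) at chr4:8848801-8850516, *UGT84A3* (AT4G15490) at chr4:8852656-8854706 and *UGT84A4* (AT4G15500) at chr4:8856962-8858678. Coordinates and sequences are those of TAIR10.1 with its RefSeq annotation. How alike the coding sequences are matters because reads from one copy could be counted for another. The coding sequence of *UGT84A2* was 71.6% identical to that of *UGT84A3*, and *UGT84A3* was 80.8% identical to *UGT84A4*. Stretches of 60 coding bases were compared where no copy had an alignment gap or an exon junction. The most alike of them, with 45 bases shared by all 4 genes, is shown 5′ to 3′ on the coding strand. Capitals mark bases that differ from *UGT84A2*.
UGT84A2 (chr3:7595916-7595975): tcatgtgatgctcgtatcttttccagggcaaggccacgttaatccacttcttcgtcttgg
UGT84A1 (chr4:8850360-8850419): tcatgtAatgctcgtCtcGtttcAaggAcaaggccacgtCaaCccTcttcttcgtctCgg
UGT84A3 (chr4:8854224-8854283): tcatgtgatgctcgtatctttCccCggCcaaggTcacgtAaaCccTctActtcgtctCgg
UGT84A4 (chr4:8858440-8858499): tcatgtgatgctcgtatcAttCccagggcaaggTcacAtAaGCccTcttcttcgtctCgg
Each of the other copies differed from *UGT84A2* at 9 of these 60 bases. No stretch of 150 bases, the read length, from the transcripts of any of the 10 genes occurred in a transcript of another gene. *UGT84A2*, *UGT84A3* and *UGT84A4* did not share even a stretch of 50 bases with another gene.

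*UGT84A2* had the largest change of the 10 genes. It was at 137, 86.3 and 94.4 CPM in the *ref4-3* libraries, against 17.6, 14.6 and 10.1 CPM in the wild-type libraries. Every *ref4-3* library was above every wild-type library, and the groups lay far apart. The means were 106 ± 27.1 CPM in *ref4-3* and 14.1 ± 3.74 CPM in wild type (SD, n = 3 each), which gives a 7.51-fold higher level, a log2 fold change of 2.91 ± 0.26 (SE) and an adjusted p of 0.00146 by edgeR's quasi-likelihood test. A rise of at least this size was seen in 94 of the 23050 tested genes, or 0.408%.

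*UGT84A3* codes for an enzyme with a broader range of hydroxycinnamate acceptors. Its level was 76.3, 52.1 and 59.0 CPM in *ref4-3*, against 36.5, 27.5 and 23.0 CPM in wild type. The groups did not overlap here either, although the lowest *ref4-3* library and the highest wild-type library were closer than for *UGT84A2*. Its transcript rose 2.16-fold in *ref4-3*, with a log2 fold change of 1.11 ± 0.21 (SE) and an adjusted p of 0.0143. Without *ref4-3* replicate 3 the log2 fold change was 1.14 and the adjusted p by edgeR's test was 0.0557. *UGT84A2* and *UGT84A3* were the only 2 of the 10 genes that were both called and more than 2-fold higher, which 4.48% of all tested genes were, and none was both called and more than 2-fold lower, against 5.24% of all tested genes.

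The other members of the tandem array had low levels. *UGT84A4* was at 1.68, 1.17 and 1.36 CPM in *ref4-3*, against 1.65, 2.43 and 2.64 CPM in wild type. *ref4-3* replicate 1 and wild-type replicate 1 were nearly equal, and the groups overlapped. The log2 fold change was -0.67 ± 0.27 (SE), with an adjusted p of 0.118 by edgeR's test. *UGT84A1* was at 0.784, 0.343 and 0.464 CPM in *ref4-3*, against 0.698, 0.348 and 0.619 CPM in wild type. The values of both genotypes were interleaved, with a log2 fold change of -0.05 ± 0.45 (SE), an adjusted p of 0.940 and a sign that turned in several alternative fits. The last 69 bases of *UGT84A1* also overlap AT4G15475 on the opposite strand, which was at 27.0 CPM in *ref4-3* and 28.7 CPM in wild type. The strand setting of the counting is not given in the sources used here, so reads from this overlap cannot be told apart.

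Neighbouring genes of the array did not pass the test, with log2 fold changes of -0.48 for AT4G15470, -0.09 for AT4G15475 and -0.12 for *PPD1* (adjusted p of 0.0703, 0.637 and 0.555). *UGT84A3* was the 1 called gene among the 6 tested genes of this stretch, and 20.4% of all tested genes were called. The genes on each side of it, *UGT84A1* and *UGT84A4*, did not pass the test but had low counts.

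To compare levels between genes, CPM were divided by exon length in kb. The summed level of the 4 *UGT84A* genes was 110, 71.0 and 78.8 CPM per kb in *ref4-3*, against 28.3, 22.6 and 18.4 CPM per kb in wild type. *UGT84A2* made up 64.7, 63.0 and 62.1% of this sum in the *ref4-3* libraries, against 32.2, 33.5 and 28.5% in the wild-type libraries. *UGT84A3* made up 33.9, 35.7 and 36.5% in *ref4-3*, against 62.9, 59.3 and 61.1% in wild type. The order of both genes was thus the reverse in the 2 genotypes, with a ratio of *UGT84A2* to *UGT84A3* of 1.79 ± 0.105 in *ref4-3* and 0.514 ± 0.0486 in wild type (SD, n = 3 each). An exact two-sided permutation test gave p = 0.1 for each of these sums, shares and ratios, the smallest value that 3 against 3 libraries allow. *UGT84A4* and *UGT84A1* together contributed little in either genotype, at most 8.37% for *UGT84A4* and 1.96% for *UGT84A1* in any library.

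**Figure D2:**
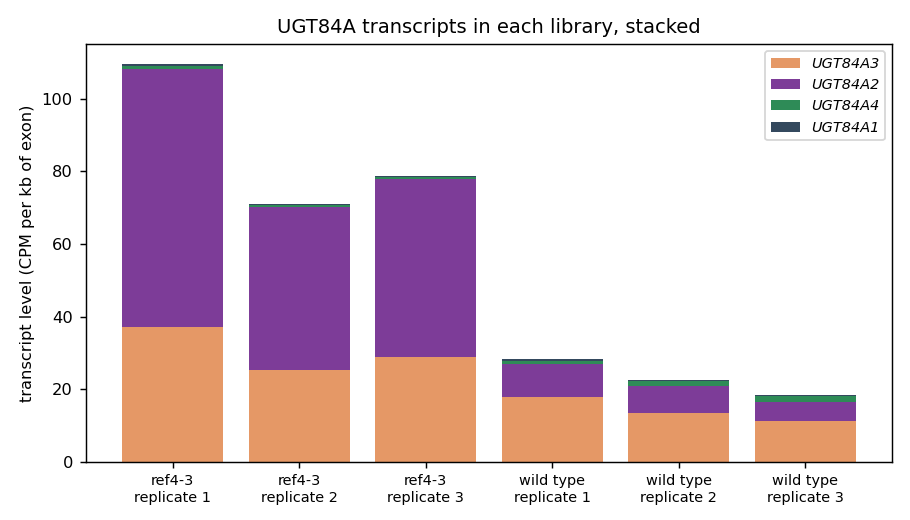
Stacked transcript levels (CPM per kb of exon) of *UGT84A3*, *UGT84A2*, *UGT84A4* and *UGT84A1* in each of the 3 *ref4-3* libraries (left) and 3 wild-type libraries (right), with no error bars because each bar is 1 library. The stacks reach 71.0 to 110 CPM per kb in *ref4-3* and 18.4 to 28.3 CPM per kb in wild type, and the *UGT84A2* segment is the larger one in *ref4-3* and the *UGT84A3* segment in wild type.

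The acyltransferases act on the product of these enzymes. SNG1 (sinapoylglucose accumulator 1) transfers the sinapoyl group to malate and forms sinapoylmalate, the main sinapate ester of leaves. SST forms disinapoylglucose from a pair of sinapoylglucose molecules, and SCPL10 has been described as an acyltransferase for anthocyanins. *SNG1* (AT2G22990, chr2:9786087-9790335), *SCPL10* (AT2G23000, chr2:9792166-9796408) and *SST* (AT2G23010, chr2:9798757-9802676) follow each other on the plus strand of chromosome 2, downstream of the related genes *SCPL11* (AT2G22970) and *SCPL13* (AT2G22980). The 5 genes form a tandem array. The coding sequence of *SNG1* was 85.8% identical to *SCPL10* and 85.9% identical to *SST*. Picked in the same way, the most alike stretch of 60 coding bases, with 51 bases shared by all 5 genes, is shown. Capitals again mark bases that differ, here from *SNG1*.
SNG1 (chr2:9786583-9786642): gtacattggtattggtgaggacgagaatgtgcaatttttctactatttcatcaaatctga
SCPL11 (chr2:9775074-9775133): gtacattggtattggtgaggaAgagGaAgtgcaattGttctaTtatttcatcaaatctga
SCPL13 (chr2:9779239-9779298): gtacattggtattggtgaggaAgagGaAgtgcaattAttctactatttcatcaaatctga
SCPL10 (chr2:9792495-9792554): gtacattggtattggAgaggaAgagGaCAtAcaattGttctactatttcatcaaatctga
SST (chr2:9799059-9799118): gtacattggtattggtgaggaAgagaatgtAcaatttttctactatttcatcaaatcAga
*SST* differed from *SNG1* at 3 bases of this stretch and *SCPL10* at 7. Of all stretches of 50 bases in the transcripts, 0.439% of those of *SNG1* also occurred in another gene, against 3.10% for *SCPL10* and 4.71% for *SST*, which shared most of them with each other. Of the 4 acyltransferase genes, *SCPL10* and *SST* are therefore the least certain in this respect. In the rest of the array, *SCPL11* shared 4.20% of its stretches, most often with *SCPL12*, and is no more certain than *SCPL10*. The stretches that *SNG1* shared were shared with *SCPL11*, and *SCPL13* shared none.

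*SNG1* was the acyltransferase gene with the highest level in both genotypes. It was at 158, 125 and 128 CPM in *ref4-3*, against 251, 270 and 274 CPM in wild type. Every *ref4-3* library was below every wild-type library, and the libraries of each genotype lay close together. The means were 137 ± 18.0 CPM in *ref4-3* and 265 ± 12.3 CPM in wild type (SD, n = 3 each), a 1.93-fold lower level with a log2 fold change of -0.95 ± 0.14 (SE) and an adjusted p of 0.00641 by edgeR's quasi-likelihood test. In bulk tissue, fewer cells of a type and less RNA per cell cannot be told apart. The 4 mesophyll markers summed to 15700 to 20200 CPM in *ref4-3* and 27200 to 32700 CPM in wild type, and 2 of them (*LHCB1.1* and *CAB3*) were called lower. The 3 epidermis markers summed to 220 to 233 CPM in *ref4-3* and 276 to 357 CPM in wild type, and 2 of them (*ATML1* and *PDF2*, transcription factors of the outer cell layer) were called lower. None of these markers was at 0, and their part in the lower level of *SNG1* was not tested.

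*SST* moved the other way. Its level was 12.9, 8.88 and 8.10 CPM in *ref4-3*, against 6.03, 4.28 and 5.45 CPM in wild type. The groups did not overlap, although *ref4-3* replicate 1 stood above the other libraries of its genotype. The log2 fold change was 0.93 ± 0.23 (SE), with an adjusted p of 0.0292 by edgeR's test. This call was close to the threshold: leaving out any *ref4-3* library, wild-type replicate 2 or wild-type replicate 3 gave log2 fold changes of 0.69 to 1.05 and adjusted p of 0.0583 to 0.0776.

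*SCPL10* was at 24.8, 14.7 and 12.7 CPM in *ref4-3*, against 13.5, 11.8 and 8.13 CPM in wild type. Replicate 1 was the highest library of each genotype, and *ref4-3* replicate 3 was below replicate 1 of wild type. Its log2 fold change of 0.64 ± 0.29 (SE) had an adjusted p of 0.144 by edgeR's test. When CPM were computed from library totals without TMM, it was 0.88 with an adjusted p of 0.0489.

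*SCPL11* and *SCPL13*, which precede *SNG1* on the chromosome, fell as *SNG1* did. *SCPL11* averaged 19.5 ± 3.23 CPM in *ref4-3* and 36.7 ± 1.91 CPM in wild type (SD, n = 3 each; log2 fold change -0.91 ± 0.14 SE, adjusted p = 0.00820 by edgeR's test). *SCPL13* averaged 64.7 ± 9.06 CPM in *ref4-3* and 119 ± 20.6 CPM in wild type (SD, n = 3 each; log2 fold change -0.88 ± 0.17 SE, adjusted p = 0.0152 by edgeR's test). Without *ref4-3* replicate 3, the adjusted p of *SCPL13* was 0.0697. Along the chromosome, 3 genes that were called lower (*SCPL11*, *SCPL13* and *SNG1*) were thus followed by *SCPL10*, which did not pass the test. *SST*, which comes next, was called higher. *SNRK2.9*, the next tested gene and on the opposite strand, was also called higher (log2 fold change 1.89 ± 0.46 SE, adjusted p = 0.0283 by edgeR's test). It was at 2.5 CPM in *ref4-3* and 0.686 CPM in wild type, and its call was not examined in the alternative fits. AT2G23040, the tested gene after it, did not pass the test (0.10, adjusted p = 0.79). *SCPL12*, which lies farther upstream, did not pass the test (log2 fold change 0.18 ± 0.26 SE). Between *SCPL12* and *SCPL11*, the tested genes AT2G22930 and *ACA7* did not pass it either (-0.56 and 0.78, adjusted p of 0.511 and 0.326 by edgeR's test).

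**Figure D3:**
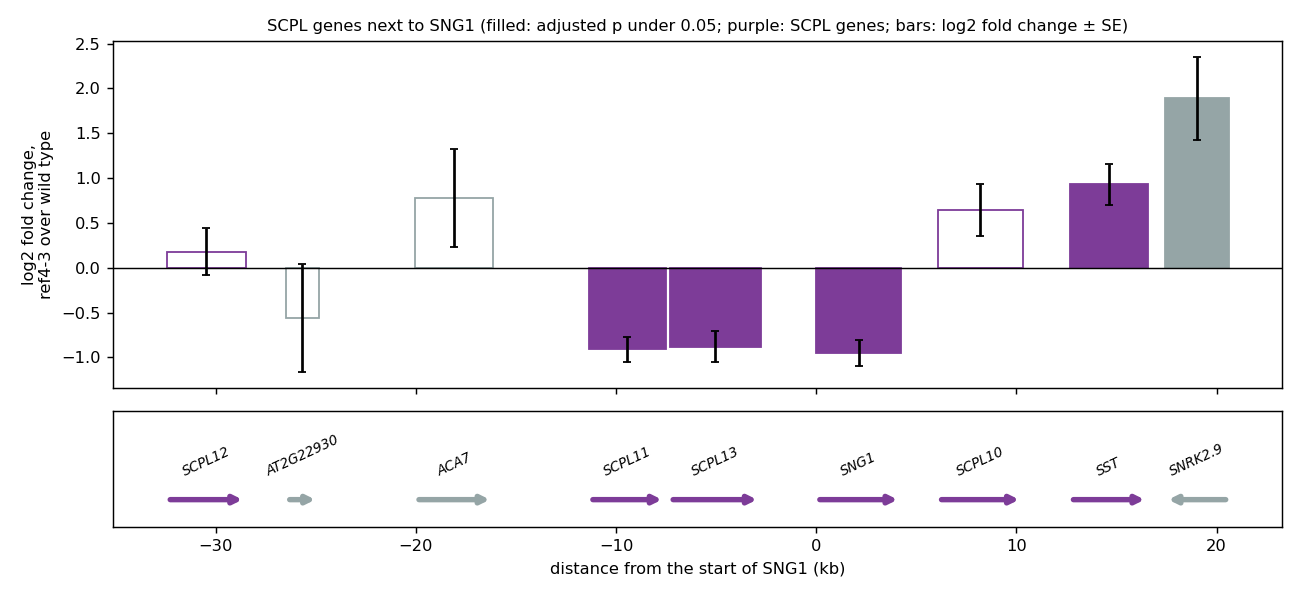
Log2 fold change of *ref4-3* over wild type (bars, with SE; filled where the adjusted p was under 0.05) of the tested protein-coding genes around *SNG1*, plotted at their distance from the start of *SNG1* in kb, with arrows for their strand and SCPL genes in purple. *SCPL11*, *SCPL13* and *SNG1* have bars of -0.91, -0.88 and -0.95, and *SCPL10* and *SST* have bars of 0.64 and 0.93.

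Per kb of exon, *SNG1* made up 57.6, 53.5 and 56.5% of the summed level of these 5 adjacent SCPL genes in *ref4-3*, against 60.8, 65.1 and 60.6% in wild type. *SNG1* was therefore the main transcript of the group in each library. *SST* made up 6.20, 4.99 and 4.68% in *ref4-3*, against 1.92, 1.36 and 1.58% in wild type, and *SCPL10* made up 9.04, 6.28 and 5.58% in *ref4-3*, against 3.27, 2.83 and 1.80% in wild type. The ratio of *SST* to *SNG1* was 0.108, 0.0932 and 0.0829 in *ref4-3*, against 0.0316, 0.0208 and 0.0261 in wild type. Ratios and shares of the 3 genes did not overlap between genotypes, and each had the smallest possible exact permutation p of 0.1. The shares of the other 2 genes overlapped. *SCPL11* averaged 8.84% in *ref4-3* and 9.62% in wild type (exact permutation p = 0.4). *SCPL13* averaged 23.0% in *ref4-3* and 24.0% in wild type (exact permutation p = 0.8).

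*SNG2* (AT5G09640, chr5:2988314-2991156, plus strand) codes for the choline acyltransferase of developing seeds and was nearly silent in rosettes. It had 13, 7 and 9 counts in the *ref4-3* libraries, against 5, 5 and 4 counts in the wild-type libraries, or 0.378, 0.240 and 0.278 CPM against 0.159, 0.174 and 0.165 CPM. All values were above the floor of 3 counts, and those of *ref4-3* were higher. It did not pass the expression filter. In a fit without that filter, the log2 fold change was 0.75 ± 0.53 (SE), with an adjusted p of 0.363 by edgeR's test. Among the 13106 genes with counts that failed the filter, 22.8% had every *ref4-3* library above every wild-type library and 0.763% had every one below, and the wild-type libraries had counts on fewer genes. Coding identity of *SNG2* with *SNG1* was 63.5%, and it shared no stretch of 50 bases with another gene.

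Upstream of the glucosyltransferases, *REF1* (AT3G24503, annotated *ALDH2C4*, chr3:8919560-8923296, minus strand) was at 143, 152 and 216 CPM in *ref4-3*, against 119, 139 and 147 CPM in wild type. *ref4-3* replicate 3 was the highest library, and *ref4-3* replicate 1 was below wild-type replicate 3. The means were 171 ± 40.0 CPM in *ref4-3* and 135 ± 14.4 CPM in wild type (SD, n = 3 each), with a log2 fold change of 0.33 ± 0.19 (SE) and an adjusted p of 0.218 by edgeR's test. With library totals in place of TMM the value was 0.59, with an adjusted p of 0.0499. The gene overlaps *MBF1C* by 124 bases on the opposite strand, and *MBF1C* was at 5.82 CPM in *ref4-3* and 6.81 CPM in wild type. The related mitochondrial aldehyde dehydrogenase genes *ALDH2B4* and *ALDH2B7* had log2 fold changes of -0.06 and 0.26 and did not pass the test. With library totals *ALDH2B7*, like *REF1*, was called (0.50, adjusted p = 0.0489).

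*CSE* (AT1G52760, annotated *LysoPL2*, chr1:19651172-19652825, plus strand) acts earlier, on the shikimate ester that HCT and C3'H produce. It was at 24.8, 25.1 and 22.3 CPM in *ref4-3*, against 37.0, 32.4 and 38.4 CPM in wild type. Every *ref4-3* library was below every wild-type library, with little spread in either genotype. The means were 24.1 ± 1.51 CPM in *ref4-3* and 36.0 ± 3.15 CPM in wild type (SD, n = 3 each), a 1.49-fold lower level with a log2 fold change of -0.58 ± 0.12 (SE) and an adjusted p of 0.0169 by edgeR's test. The call was lost without *ref4-3* replicate 2 (-0.60, adjusted p = 0.0502), without *ref4-3* replicate 3 (-0.54, adjusted p = 0.0801) and with library totals in place of TMM (-0.33, adjusted p = 0.0982).

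Per kb of exon, the order of the 10 genes in *ref4-3* was *REF1* (87.7), *SNG1* (65.4), *UGT84A2* (54.9), *UGT84A3* (30.5), *CSE* (16.6), *SCPL10* (8.29), *SST* (6.25), *UGT84A4* (0.817), *UGT84A1* (0.309) and *SNG2* (0.181), in mean CPM per kb. In wild type it was *SNG1* (126), *REF1* (69.6), *CSE* (24.7), *UGT84A3* (14.1), *UGT84A2* (7.30), *SCPL10* (5.31), *SST* (3.29), *UGT84A4* (1.31), *UGT84A1* (0.323) and *SNG2* (0.101). Neighbours whose libraries overlapped were *REF1* and *SNG1*, *SNG1* and *UGT84A2*, *SCPL10* and *SST*, and *UGT84A1* and *SNG2* in *ref4-3*, and *UGT84A2* and *SCPL10* in wild type. *SNG1* and *UGT84A2*, which code for the enzymes that use and make sinapoylglucose, stood next to each other in this order in *ref4-3* but not in wild type. Their ratio per kb was 1.06, 1.33 and 1.25 in the *ref4-3* libraries, against 13.1, 17.0 and 24.9 in the wild-type libraries.

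The earlier steps of the route to sinapate and to the monolignols, the building blocks of lignin, were represented by 17 listed genes, all of which were tested. Of these, 11 were called lower in *ref4-3*, none was called higher and 6 did not pass the test. Over all tested genes, 11.9% were called lower and 8.52% higher. Of the 11, 8 were more than 2-fold lower, and 5.24% of all tested genes were both called and more than 2-fold lower. The median log2 fold change of the 17 genes was -1.01, against 0.01 over all tested genes. The largest called changes were those of *PAL2* (-2.11 ± 0.26 SE, adjusted p = 0.00450), which codes for a phenylalanine ammonia lyase, and of *HCT* (-1.79 ± 0.21 SE, adjusted p = 0.00377), which codes for the transferase that forms the shikimate ester. *HCT* was at 33.5, 22.7 and 22.3 CPM in *ref4-3*, against 107, 88.9 and 75.8 CPM in wild type. The ligase genes *4CL1* (-1.66), *4CL5* (-1.30) and *4CL2* (-1.15), the hydroxylase genes *C3'H* (-1.15) and *C4H* (-0.77) and the methyltransferase gene *CCoAOMT1* (-0.85) were called lower as well. So were the reductase and dehydrogenase genes of the monolignol branch, *CAD4* (-1.43), *CCR1* (-1.01) and *CAD5* (-0.74). Among these 11 genes, the calls of *C4H*, *CCoAOMT1*, *CCR1* and *CAD5* were lost without *ref4-3* replicate 2 or without *ref4-3* replicate 3, that of *4CL5* without *ref4-3* replicate 3, and that of *CAD5* also with library totals in place of TMM. On the opposite strand, *CCR1* overlaps *NRAMP6* by 516 bases, *C3'H* overlaps *CYSA* by 70 bases and *4CL5* overlaps *MKK5* by 459 bases. These are overlaps of whole genes with their introns, and how much of them lies in exons was not checked. Reads from any shared exon bases cannot be told apart. *MKK5* was at 16.2 CPM in *ref4-3* and 27.1 CPM in wild type, where *4CL5* had 1.93 CPM in *ref4-3* and 4.78 CPM in wild type. *CYSA* was at 69.5 CPM in *ref4-3* and 105 CPM in wild type, where *C3'H* had 13.5 CPM in *ref4-3* and 30.0 CPM in wild type. *NRAMP6* was at 9.30 CPM in *ref4-3* and 14.0 CPM in wild type, where *CCR1* had 36.9 CPM in *ref4-3* and 74.2 CPM in wild type.

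*FAH1*, which codes for the hydroxylase that commits the route to sinapate, was at 57.5 ± 8.55 CPM in *ref4-3* and 76.9 ± 11.6 CPM in wild type (SD, n = 3 each), with a log2 fold change of -0.42 ± 0.16 (SE) and an adjusted p of 0.101 by edgeR's test. *PAL1*, *PAL3*, *PAL4*, *4CL3* and *CCR2* did not pass the test either, with log2 fold changes of -0.73, -0.32, 0.06, 0.27 and -1.62. *PAL1* was called without *ref4-3* replicate 1 (-1.16, adjusted p = 0.0172 by edgeR's test). *CCR2* was at 1.02, 0.549 and 0.927 CPM in *ref4-3*, against 0.603, 4.97 and 2.19 CPM in wild type, and its value was -0.72 without wild-type replicate 2 and -2.13 without wild-type replicate 1, where it was called (adjusted p = 0.0199 by edgeR's test). It was also called by DESeq2 (adjusted p = 0.0490). The ratio of *CSE* to *HCT* per kb was 0.917, 1.37 and 1.24 in *ref4-3*, against 0.426, 0.451 and 0.627 in wild type, without overlap and at the smallest possible exact permutation p of 0.1. The ratio of *REF1* to *FAH1* was 2.20, 3.15 and 3.93 in *ref4-3*, against 1.37, 1.89 and 2.28 in wild type, which overlapped (exact permutation p = 0.2).

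**Figure D4:**
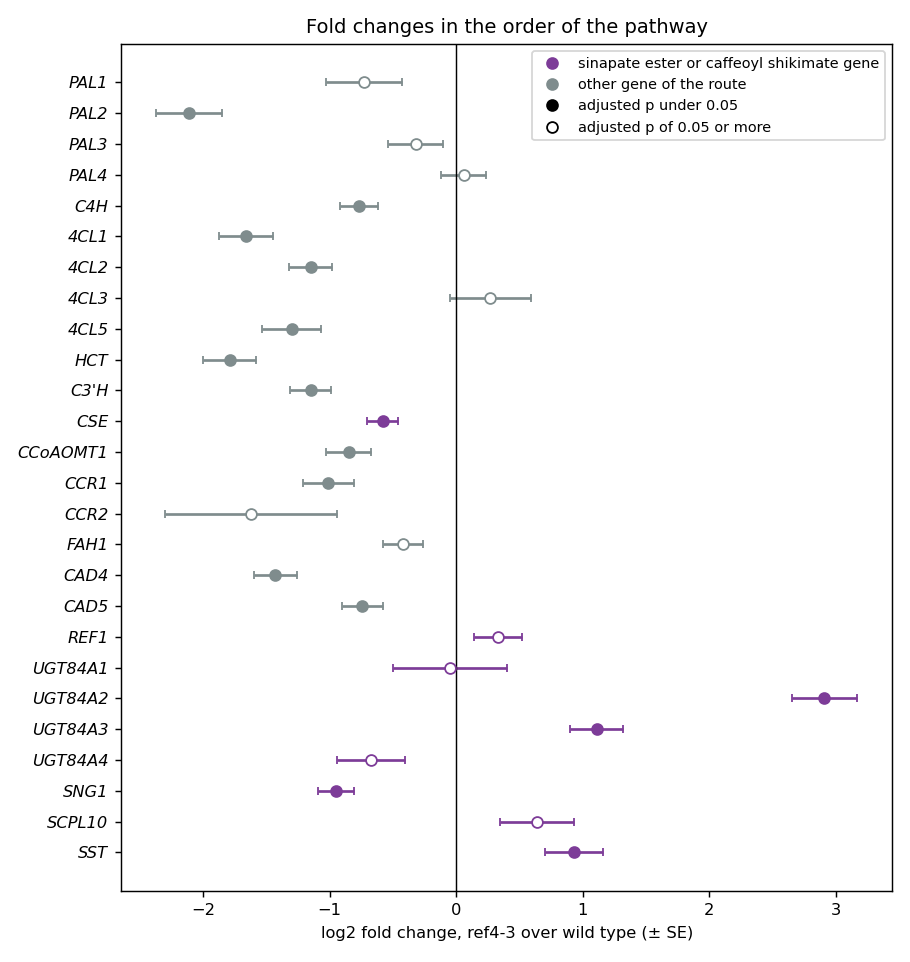
Log2 fold change of *ref4-3* over wild type (points, with SE) for the 17 listed genes of the route (grey) and the 9 tested sinapate ester and caffeoyl shikimate genes (purple), ordered from the first step at the top to the acyltransferases at the bottom, and filled where the adjusted p was under 0.05. Points lie between -2.11 and 0.27 for the route and between -0.95 and 2.91 for the 9 genes.

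Several listed families allow a comparison with relatives of the 10 genes. Their counts stand beside the shares over all tested genes, 11.9% called lower and 8.52% called higher. Of 16 other acyltransferase-like SCPL genes, 12 were tested, and *SCPL11* and *SCPL13* were called lower while 10 did not pass the test (median log2 fold change 0.32), of which *SCPL6*, *SCPL16* and *SCPL17* were each called in 1 or 2 of the alternative fits. Of 6 other glucosyltransferase genes for phenolic acids and monolignols, 5 were tested. *UGT72E2*, which codes for a monolignol glucosyltransferase, rose in *ref4-3* (5.72 ± 1.51 CPM in *ref4-3* and 0.544 ± 0.281 CPM in wild type, SD, n = 3 each; log2 fold change 3.42 ± 0.38 SE, adjusted p = 0.00311 by edgeR's test). *UGT72E1*, whose product acts on the corresponding aldehydes, fell (-1.04 ± 0.13 SE, adjusted p = 0.00472), and *UGT72B1* rose (0.67 ± 0.17 SE, adjusted p = 0.0323). The last call was lost without any *ref4-3* library, wild-type replicate 2 or wild-type replicate 3, with adjusted p of up to 0.119. *UGT84B1* and *UGT72E3* did not pass the test, with log2 fold changes of 1.70 ± 0.75 and 1.40 ± 0.64 (SE). *UGT84B1*, at 0.393 CPM in *ref4-3* and 0.119 CPM in wild type, was called by edgeR's exact test (adjusted p = 0.0316). It had 17, 11 and 10 counts in *ref4-3*, against 6, 0 and 4 counts in wild type, and passed the expression filter only through *ref4-3*. The same held for *SCPL6* and *SCPL17*, and low counts leaned upward in *ref4-3* in general.

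Of 4 genes for acyltransferases that join hydroxycinnamates to amines, *AACT1* (AT5G61160), whose product has been described as an agmatine coumaroyltransferase, was called lower. It averaged 2.50 ± 2.04 CPM in *ref4-3* and 39.9 ± 5.93 CPM in wild type (SD, n = 3 each), with a log2 fold change of -3.99 ± 0.50 (SE) and an adjusted p of 0.00451 by edgeR's test. Without *ref4-3* replicate 3, which had 4.85 CPM against 1.28 and 1.37 CPM in the other *ref4-3* libraries, the log2 fold change was -4.92. The spermidine acyltransferase genes *SHT* and *SDT* were at most 1.15 CPM in any library and did not pass the test. AT2G25150, the remaining listed gene, did not pass it either (log2 fold change 0.33, adjusted p = 0.414 by edgeR's test). Of all tested genes, 11.9% were called lower.

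A list of 9 loci known by a fluorescence phenotype includes 3 of the genes described here, *REF1*, *SNG1* and *UGT84A2*. Of the 9, 4 were called lower, namely *REF3* (*C4H*), *REF8* (*C3'H*), *REF5* and *SNG1*. *UGT84A2* was called higher, and *REF1*, *REF2*, *REF4* and *FAH1* did not pass the test. Over all tested genes, 11.9% were called lower and 8.52% higher. *REF5*, which codes for the cytochrome P450 CYP83B1 of indole glucosinolate synthesis, was at 64.8 ± 18.5 CPM in *ref4-3* and 267 ± 79.6 CPM in wild type (SD, n = 3 each; log2 fold change -2.04 ± 0.28 SE, adjusted p = 0.00561 by edgeR's test). *REF2*, which codes for CYP83A1 of aliphatic glucosinolate synthesis, had a log2 fold change of -0.57 ± 0.28 (SE) and an adjusted p of 0.180.

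The 3 listed genes for MYB factors of subgroup 4, which are known as repressors of phenylpropanoid genes, were all called higher in *ref4-3*. Among all tested genes, 8.52% were called higher and 22.4% had every *ref4-3* library above every wild-type library. *MYB4* was at 86.6, 124 and 120 CPM in *ref4-3*, against 11.1, 5.74 and 8.88 CPM in wild type, without overlap (log2 fold change 3.68 ± 0.27 SE, adjusted p = 0.000717 by edgeR's test). *MYB7* changed by 2.72 ± 0.21 (SE) on the log2 scale (adjusted p = 0.000883). *MYB32* changed by 0.84 ± 0.18 (SE) on that scale (adjusted p = 0.0196), and this call was lost without *ref4-3* replicate 2, *ref4-3* replicate 3 or wild-type replicate 2, with adjusted p of up to 0.0837.

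Because MYB factors bind AC elements and many light- and jasmonate-related factors bind the G-box, the 250 bases before each annotated gene start were searched on both strands for the AC-I element (ACCTACC), the AC-II element (ACCAACC), the AC-III element (ACCTAAC) and the G-box (CACGTG). An AC element of any kind occurred in 2 of the 10 genes, *SNG2* and *SCPL10*, and in 7 of the 17 route genes, against 6.12% of 27443 gene promoters. A G-box occurred in *SCPL10* alone among the 10 genes, against 6.49% of promoters. The window of *SCPL10* is shown because both motifs overlap in it by a base (capitals), from 42 to 31 bases before the start. Those of *UGT84A2* and *SNG1* are shown because these genes had the largest called changes in each direction, and neither contains any of the 4 motifs.
SCPL10 (chr2:9791916-9792165): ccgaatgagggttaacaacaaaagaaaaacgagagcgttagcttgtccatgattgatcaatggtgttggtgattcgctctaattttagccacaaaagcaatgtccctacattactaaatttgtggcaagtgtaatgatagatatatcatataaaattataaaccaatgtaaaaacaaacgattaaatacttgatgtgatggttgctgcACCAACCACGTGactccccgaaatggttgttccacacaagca
UGT84A2 (chr3:7595430-7595679): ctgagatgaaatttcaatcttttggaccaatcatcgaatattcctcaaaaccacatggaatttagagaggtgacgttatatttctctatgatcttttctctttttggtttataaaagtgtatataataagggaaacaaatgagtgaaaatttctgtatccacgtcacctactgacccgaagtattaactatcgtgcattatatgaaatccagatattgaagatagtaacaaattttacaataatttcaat
SNG1 (chr2:9785837-9786086): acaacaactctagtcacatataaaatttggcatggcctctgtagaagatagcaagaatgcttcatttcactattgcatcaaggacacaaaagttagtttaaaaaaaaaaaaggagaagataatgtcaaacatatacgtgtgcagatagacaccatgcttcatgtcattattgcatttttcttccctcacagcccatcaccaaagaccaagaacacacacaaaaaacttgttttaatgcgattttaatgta
All 3 windows are on the plus strand. A match describes the letters of the window and is not evidence of binding, and the absence of a match concerns only these 250 bases.

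The genes whose profile over the 6 libraries was most like that of *SNG1*, among the 19053 tested genes that averaged 1 CPM or more, were AT5G43830, AT2G32160, AT1G67900, *SCPL11* and AT1G74840. Their root mean square differences from *SNG1* on centred log2 CPM were 0.0590, 0.0600, 0.0610, 0.0620 and 0.0640. Only *SCPL11* of these is a listed gene and a neighbour of *SNG1*.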

How the data were processed

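Per the study's methods and the submitters' processing notes, paired-end reads of 150 bases from poly(A)-selected, directional libraries were trimmed with fastp 0.23.2, mapped to TAIR10 with HISAT2 2.2.1, handled with SAMtools 1.17 and counted per gene of Araport11. DESeq2 and limma are named for the counting, and the strand setting is not given in the sources used here. The deposited values are the authors' raw counts of reads per gene, without normalization or pooling. Groups and replicate numbers came from the sample labels, which call the replicates biological.

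Genes were tested with edgeR 4.0.16 (R 4.3.3): filterByExpr (minimum count 10, minimum total 15) retained 23050 genes, with TMM factors, a two-sided quasi-likelihood test between the 2 genotypes and Benjamini-Hochberg correction. SEs came from the F statistic. Alternatives were edgeR's exact test, DESeq2 1.42.0, RLE factors, 2 other filters, a fold change threshold of 2, a replicate block, each library left out and, chosen after seeing the data, library totals without TMM. With library totals the median log2 fold change of all tested genes was 0.25 higher.

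The genes, lists and rules were chosen with earlier results of these data known. The text names all 10 genes in each library, the called genes of the route, *FAH1*, *MED5b*, the MYB genes, the SCPL neighbours of *SNG1*, up to 5 called genes of each other list and the 5 profiles most like *SNG1* (root mean square difference, pseudocount 0.5). Other genes of these lists and *SNRK2.9*, AT2G23040, AT2G22930, *ACA7*, AT4G15470, AT4G15475, *NRAMP6*, *CYSA*, *MKK5*, *MBF1C* and *PPD1* were named after their values were seen. A gene of the route was left out of its list and is not reported here.

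Of the 36796 genes, 36632 were found in the RefSeq annotation of TAIR10.1, whose exon lengths, coordinates and sequences were used. Promoters were cut from that genome, and coding sequences, in place of proteins, were aligned with MAFFT 7.526. Tables and figures used Python 3.11.15, pandas 2.3.3 and matplotlib 3.10.9.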

Additional observations from a re-analysis of the deposited data

How the results depend on the processing

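*SNG1* (log2 fold change -1.07 to -0.70) and *UGT84A2* (2.68 to 3.14) kept their direction and call in all 13 alternative fits. Leaving out each library in turn gave 0.93 to 1.28 for *UGT84A3*, 0.69 to 1.05 for *SST*, -0.67 to -0.54 for *CSE* and -0.45 to 0.17 for *UGT84A1*, with 1 to 2 of the 10 genes called lower and 1 to 3 called higher. Over all tested genes it gave 588 to 2910 lower and 420 to 1729 higher calls, against 2737 and 1964, and the fewest came without *ref4-3* replicate 3. With library totals in place of TMM, 1518 genes were called lower and 4387 higher; of the 10 genes, 1 was called lower and 5 higher, with *SCPL10* at 0.88, *REF1* at 0.59 and *CSE* at -0.33. With a fold change threshold of 2 as well, 0 of the 10 genes were called lower.

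*UGT84A1* was at 0.02 with at least 10 counts in every library and 0.17 with library totals, and was above 0 without *ref4-3* replicate 2 or 3 or wild-type replicate 1. Other uncalled genes turned sign, and over the fits without 1 library *PAL4* ranged from -0.03 to 0.15, *4CL3* from -0.08 to 0.50, *SCPL4* from -0.02 to 0.25 and *SHT* from -0.39 to 0.57. *PAL4* was at -0.04 with no filter, and *SHT* at 0.19 with library totals and 0.04 with the replicate block. *ALDH2B4* was at 0.01 with at least 10 counts in every library and 0.18 with library totals. The causes were not tested. The labels do not say that a replicate number marks a shared batch, so the numbers were not taken to pair samples. Deviations of same-numbered libraries of both genotypes had Pearson correlations of -0.0979, -0.0240 and 0.207 across genes. Those of differently numbered libraries had correlations of -0.135 to 0.133. A block for the replicate number gave 1298 higher calls and changed no call of the 10 genes, but *PAL1* was called in it (-0.80, adjusted p = 0.0386 by edgeR's test). Depth limits what can be said of *SNG2* and *UGT84A1*, and 3 libraries per genotype cannot give an exact permutation p under 0.1.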
